A study of Mus musculus with 6 samples.

Results

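The subunits of respiratory complexes II to V were followed in RNA sequencing of captured mouse tumour-cell clusters and of the cultured mammary carcinoma line 4T1. The members are 46 genes chosen by name as subunits of these 4 complexes, 40 in the nucleus and 6 in the mitochondrial genome, out of 56691 gene identifiers in the deposited table. All 46 were found, and 45 passed the filter on low counts. The exception was Cox4i2, the alternative isoform of subunit 4 of cytochrome c oxidase, with counts of 0, 0 and 16 in the CTM libraries and 0 in all 3 4T1 libraries.

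CTM denotes circulating tumour micro-emboli, small groups of tumour cells carried by the blood, and has 3 libraries, recovered on a microfluidic Cluster-chip from mice with breast cancer and lung metastasis. 4T1 denotes 3 libraries of the line of that name, cultured in DMEM with serum and antibiotics, in what the titles call a low adherence culture. The growth protocol of the CTM libraries describes the same culture of 4T1 cells; no strain, age or genotype of the mice is given in these labels. CTM and 4T1 cells differ in growth (mouse or dish), in passage through blood and in capture, and these cannot be told apart. Separate animals or cultures behind the libraries are not stated, so a p-value here reflects library-to-library spread that may be technical.

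Oxidative phosphorylation passes electrons from food to oxygen and uses the energy to make ATP. Complex II, succinate dehydrogenase, links the citric acid cycle to this chain; complex III passes electrons from ubiquinol to cytochrome c; complex IV, cytochrome c oxidase, hands them to oxygen; complex V, ATP synthase, turns the resulting proton gradient into ATP. Complex II is encoded wholly in the nucleus. Complexes III to V each join nuclear subunits to a catalytic or proton-conducting core made inside the mitochondrion, so their assembly draws on both genomes. In tumour cells and in other cells, several of these genes have isoforms or modifiers that change with oxygen supply.

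Library totals of estimated counts ranged from 69178212 to 71595766 in CTM and from 69640898 to 70703739 in 4T1. Libraries numbered 2 and 3 of each group were close to each other, and 4T1 replicate 1 stood apart on the second principal component, which held 21.9% of the variance. Epithelial carcinoma markers summed to 1663 to 1773 CPM (read counts scaled to library size) in CTM and 1855 to 2233 in 4T1, while the defining epithelial marker Epcam was at only 0.518 CPM in CTM and 0.462 in 4T1. Of these 7 markers 3 fell in CTM, Krt7 (3.17-fold), Cdh1 (3.99-fold, with a wide spread in 4T1) and Krt8 (1.36-fold), and Krt19 rose (2.86-fold). The shares are 42.9% lower and 14.3% higher, against 13.7% and 14.2% of all genes. The lowest log2 fold change of the 7, -5.92, belonged to a marker that was not called. Hepatocyte markers, which a mammary line should lack, summed to between 197 and 590 CPM in CTM and between 646 and 697 in 4T1. All 6 of 6 were lower in every CTM library than in any 4T1 library, against 23.5% of all genes. By edgeR 0 of 6 were called (4 at an unadjusted p under 0.05), but 4 by DESeq2 and 6 by voom. Platelet markers summed to 8.26 to 11.5 CPM in CTM and 3.49 to 5.38 in 4T1, with Gp6 at 0. Of the 4 platelet markers tested, 2 rose, 50%, against 14.2% of all genes higher. Itga2b, also called CD41, was 2.78-fold higher (8.16 ± 1.34 CPM in CTM, 2.94 ± 0.217 in 4T1, SD, n = 3 libraries each, edgeR adjusted p = 0.00245). Gp1ba was 6.27-fold higher, from counts of 36 to 48 in CTM and 4 to 12 in 4T1 (edgeR adjusted p = 0.0127). Pf4 and Ppbp, platelet granule proteins, were not called. With each library left out in turn, 1 to 2 platelet markers were higher and 2 to 4 epithelial markers lower. Leukocyte markers summed to 19.5 to 26.7 CPM in CTM and 11.0 to 55.7 in 4T1, and erythroid markers to 3.08 to 3.90 CPM in CTM and 2.55 to 9.03 in 4T1. Both upper 4T1 values were from 4T1 replicate 1. In 4T1 replicates 2 and 3 leukocyte markers summed to 11.0 and 12.9 CPM, and erythroid markers to 3.11 and 2.55. The hepatocyte sum of 590 CPM was from CTM replicate 1, with 268 and 197 in CTM replicates 2 and 3. The part of these cells in the results below was not tested. In bulk RNA, fewer cells of a type and less RNA per cell cannot be told apart.

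Subunit transcripts were on balance lower in CTM, most of all those made in the mitochondrion. By the quasi-likelihood test of edgeR, with p adjusted over all 16414 genes tested and a threshold of 0.05, 14 of 45 members fell in CTM and 2 rose, against backgrounds of 13.7% of all genes lower and 14.2% higher (27.9% in either direction). As shares of the tested members these are 31.1% lower and 4.44% higher. The median log2 fold change, CTM over 4T1, was -0.24 over the members and -0.02 over all genes. Every CTM library was below every 4T1 library for 23 of the 45 tested members, a larger share than the 23.5% of all genes. Every CTM library was above every 4T1 library for 6 of the 45, a smaller share than the 24.8% of all genes. Of the 40 nuclear members, 9 fell, 2 rose and 28 of the 39 tested were not called, with a median of -0.21. Of the 6 mitochondrial members, 5 fell, with a median of -0.75. Without 4T1 replicate 1, 16 nuclear members fell; with libraries 2 and 3 of each group averaged as 1 sample, mt-Cytb alone was called.

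**Figure D1:**
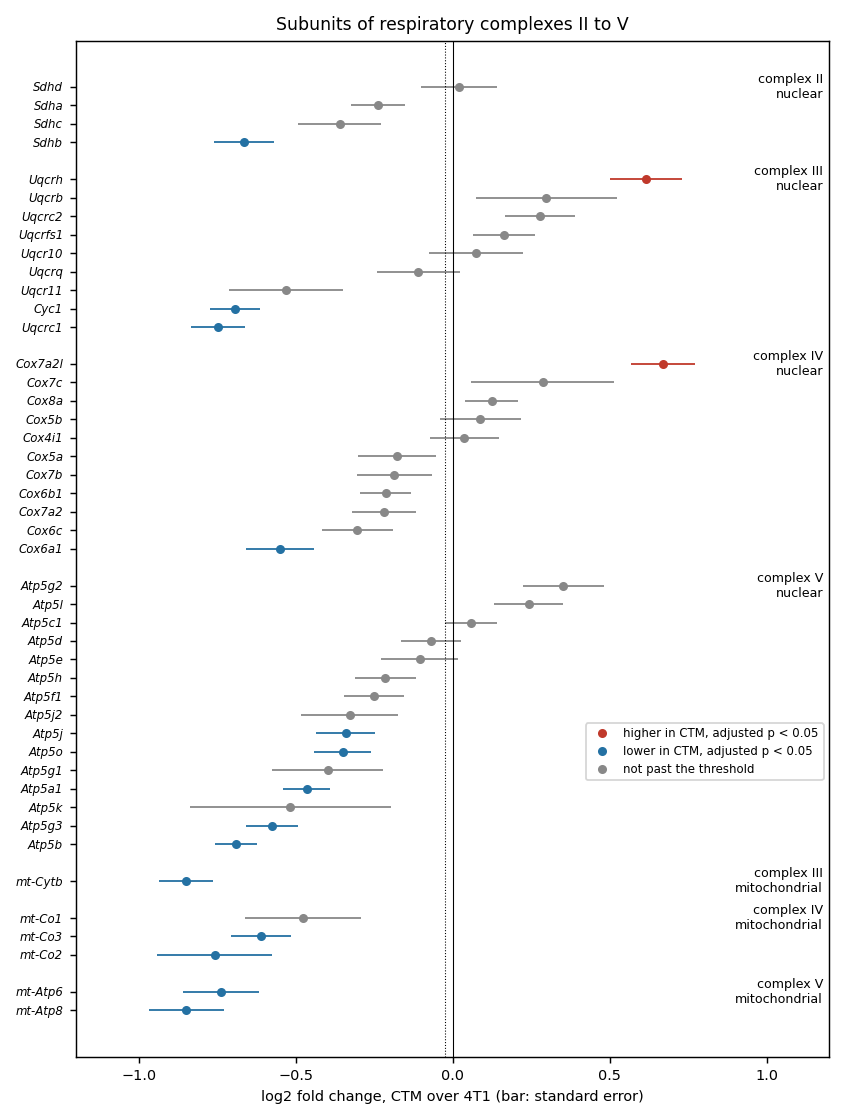
Log2 fold change of each of the 45 tested members, CTM over 4T1, from the edgeR fit, with members grouped by complex and genome. Points are estimates and bars are standard errors; the 6 mitochondrial members all lie below 0, and Cox7a2l at 0.67 and Uqcrh at 0.62 are the members that rose.

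The transcripts of the mitochondrial genome are the core of the chain and were also the most abundant members per length. On the scale of mean CPM per kilobase of the principal transcript, the 6 ranked first to sixth in both groups, from 914.5 to 2908 in CTM and from 1396 to 4046 in 4T1. The highest nuclear member, Atp5b, was at 456 in CTM and 735 in 4T1. Their summed level was 9114 ± 1142 CPM in CTM, against 14115 ± 1957 in 4T1 (SD, n = 3 libraries each), so the sum in 4T1 was 1.55 times that in CTM. The nuclear members summed to 4861 ± 79.2 CPM in CTM, against 5899 ± 186 in 4T1 (SD, n = 3 libraries each), 1.21 times as much in 4T1.

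mt-Cytb, cytochrome b, the only subunit of complex III made in the mitochondrion, was at 1297, 1470 and 1240 CPM in CTM replicates 1 to 3 and at 2285, 2476 and 2461 in 4T1 replicates 1 to 3. The groups did not overlap, and the fall was -0.85 ± 0.09 on the log2 scale (SE, edgeR adjusted p = 0.00121). mt-Co1, which holds the site where oxygen is reduced, was at 4093, 5064 and 4321 CPM in CTM, against 8166, 5438 and 5148 in 4T1. CTM replicate 2 lay close to the lower 4T1 libraries while 4T1 replicate 1 stood far above all others, and the log2 difference of -0.48 ± 0.18 was not called (SE, edgeR adjusted p = 0.0957). mt-Co2, the subunit that takes electrons from cytochrome c, was at 712, 1167 and 921 CPM in CTM and 1803, 1470 and 1461 in 4T1. It fell by 0.76 ± 0.18 on the log2 scale (SE, edgeR adjusted p = 0.0218), with no overlap but a wide spread among the CTM libraries. The call did not hold without CTM replicate 3, where the adjusted p was 0.0813, or with no filter on low counts, where it was 0.0593. mt-Co3, the third core subunit, was at 663, 800 and 688 CPM in CTM and 1157, 1070 and 1057 in 4T1, a log2 change of -0.61 ± 0.10 (SE, edgeR adjusted p = 0.00462).

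ATP synthase takes 2 subunits from the mitochondrial genome, and their reading frames overlap, which matters for counting. In GRCm38 mt-Atp8 ends and mt-Atp6 begins within the same 43 bases, chrM:7927-7969 on the plus strand. The stretch chrM:7907-7989 is shown because a read that lies within the shared bases cannot be given to either gene alone. Capitals mark the bases that belong to both genes, with 20 bases of mt-Atp8 alone before them and 20 of mt-Atp6 alone after them.
mt-Atp8 and mt-Atp6 overlap: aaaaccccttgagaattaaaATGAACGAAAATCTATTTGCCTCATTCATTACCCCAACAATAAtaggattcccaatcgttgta
mt-Atp8, a small membrane subunit, was at 374, 498 and 461 CPM in CTM and 840, 813 and 746 in 4T1, and mt-Atp6, the subunit a that lines the proton path, was at 1000, 1372 and 1200 CPM in CTM and 2109, 1952 and 1894 in 4T1. In each case the highest CTM library was well below the lowest 4T1 library. The log2 changes were -0.85 ± 0.12 for mt-Atp8 (SE, edgeR adjusted p = 0.0033) and -0.74 ± 0.12 for mt-Atp6 (SE, edgeR adjusted p = 0.0055). The 2 values are not independent, since both lie on the same precursor RNA and share those bases. The other mitochondrial members and most mitochondrial complex I subunits are cut from that precursor too, so their differences are not separate results.

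**Figure D2:**
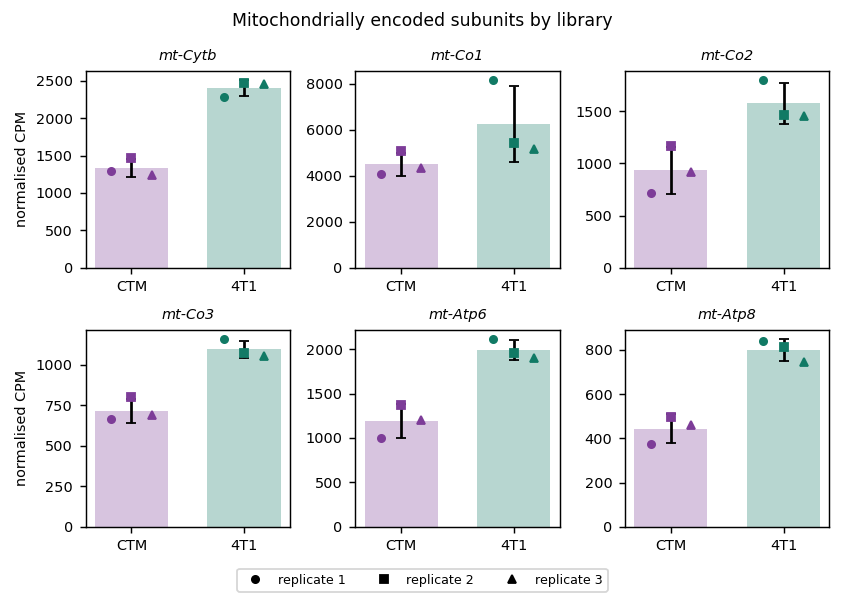
Normalised CPM of the 6 mitochondrially encoded members in each CTM and 4T1 library, with group means and SD bars. CTM libraries lie below all 4T1 libraries for each gene, and the 8166 CPM of mt-Co1 in 4T1 replicate 1 is far above the 5148 and 5438 of the other 4T1 libraries.

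The size of the mitochondrial difference varied with the libraries compared, which are not known to be paired by number. Between the libraries numbered 1 the median log2 difference, CTM minus 4T1, of the 6 members was -1.04, and between the means of those numbered 2 and 3 it was -0.55; all 6 were negative in both. The nuclear members gave -0.12 and -0.20, with 25 and 27 of 39 negative. 4T1 replicate 1 was the library farthest from its group's mean for 5 of the 6 mitochondrial members and 26 of the 39 nuclear ones. The ratio of summed mitochondrial to summed nuclear members was 1.67, 2.10 and 1.85 in the CTM libraries and 2.88, 2.21 and 2.12 in the 4T1 libraries. The groups did not overlap, but CTM replicate 2 nearly touched 4T1 replicate 3. All genes of the mitochondrial genome took between 1.11% and 1.35% of counts in CTM and between 1.86% and 2.27% in 4T1.

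The other products of the same genome did not all move this way. Of the 7 complex I subunits it encodes, 6 fell (5 to 7 with each library left out), and the median of the 7 was -0.82 on the log2 scale. mt-Nd2 changed by -1.04 (edgeR adjusted p = 0.00142), mt-Nd3 by -1.43 (edgeR adjusted p = 0.00183) and mt-Nd1 by -1.25 (edgeR adjusted p = 0.00219). The small ribosomal RNA mt-Rnr1 rose, at 163 ± 13.4 CPM in CTM, against 90.4 ± 17.2 in 4T1 (SD, n = 3 libraries each; log2 0.85, edgeR adjusted p = 0.00636). The large one, mt-Rnr2, differed by 0.04 (edgeR adjusted p = 0.92), with a 95% interval of -0.57 to 0.66. Among 23 nuclear genes for transcription, RNA processing and replication of mitochondrial DNA, 3 fell and 2 rose. These are 13.0% and 8.70% of the list, against 13.7% of all genes lower and 14.2% higher. Polg, the catalytic subunit of the mitochondrial DNA polymerase, changed by -0.54 (edgeR adjusted p = 0.00543), and Polrmt, the mitochondrial RNA polymerase, by -0.45 (edgeR adjusted p = 0.0296). Fastkd5, which acts on mitochondrial RNA, also fell. Mtpap, the mitochondrial poly(A) polymerase, and Polg2, the accessory subunit of the DNA polymerase, rose by 0.63 and 0.67 on the log2 scale (edgeR adjusted p = 0.0182 and 0.0198). Of these 5 calls only that of Polg held with each library left out. Polrmt was lost without any library but 4T1 replicate 1 (adjusted p = 0.0606 to 0.132), Fastkd5 without CTM replicate 1 or 2 or 4T1 replicate 2 or 3 (adjusted p = 0.0904 to 0.131), Polg2 without CTM replicate 2 or 3 or 4T1 replicate 2 or 3 (adjusted p = 0.0522 to 0.0808) and Mtpap without CTM replicate 2 (adjusted p = 0.0813). With no filter on low counts Polrmt and Fastkd5 were not called either (adjusted p = 0.059 and 0.0651). Tfam, which packages mitochondrial DNA and starts its transcription, was at 31.0 ± 1.96 CPM in CTM, against 40.3 ± 4.78 in 4T1 (SD, n = 3 libraries each), without overlap, and was not called (edgeR adjusted p = 0.0573). It was called lower without 4T1 replicate 1 (adjusted p = 0.00671), without both libraries numbered 1 (0.00265), by DESeq2 (0.0179) and voom (0.00135), with library totals (0.034), with a filter of 5 CPM (0.037) and with counts divided by 4 (0.0441).

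In complex II, 1 of 4 subunits fell, 25%, against 13.7% of all genes lower. Sdhb, which carries the iron-sulfur clusters between the flavin and the quinone site, was at 42.8, 47.9 and 47.6 CPM in CTM and 68.3, 75.7 and 75.2 in 4T1. The libraries separated cleanly, with a log2 change of -0.66 ± 0.10 (SE, edgeR adjusted p = 0.00339), 1.59-fold lower in CTM. Sdha, the flavin-bearing catalytic subunit, was at 249, 237 and 232 CPM in CTM and 303, 265 and 278 in 4T1. Sdhc, a membrane anchor, was at 125, 123 and 118 CPM in CTM and 127, 176 and 166 in 4T1. Neither was called, at log2 differences of -0.24 ± 0.09 (SE, edgeR adjusted p = 0.081) and -0.36 ± 0.13 (SE, edgeR adjusted p = 0.0845), although their CTM libraries lay below every 4T1 library; without 4T1 replicate 1 the adjusted p of Sdhc was 0.00146. Sdhd, the other anchor, was at 158, 133 and 120 CPM in CTM and 125, 140 and 140 in 4T1. It overlapped between groups, with a log2 difference of 0.02 and a 95% interval of -0.26 to 0.31. Of the 4 assembly factors of complex II, edgeR called 0, with 0 at an unadjusted p under 0.05, DESeq2 0 and voom 2.

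Of the 9 nuclear subunits of complex III, 2 fell and 1 rose. These are 22.2% and 11.1%, against 13.7% of all genes lower and 14.2% higher. Uqcrc1, a core subunit facing the matrix, was at 183, 192 and 205 CPM in CTM and 307, 327 and 340 in 4T1, and Cyc1, cytochrome c1, which passes electrons to cytochrome c, was at 47.8, 49.8 and 49.5 CPM in CTM and 78.7, 79.8 and 79.2 in 4T1. They fell by 0.75 ± 0.09 (SE, edgeR adjusted p = 0.00161) and 0.69 ± 0.08 (SE, edgeR adjusted p = 0.00158) on the log2 scale, gaps several times the spread within either group. Uqcrh, the acidic hinge protein that helps cytochrome c dock on cytochrome c1, went the other way, at 91.9, 84.1 and 73.7 CPM in CTM and 58.7, 50.7 and 53.5 in 4T1. It rose by 0.62 ± 0.11 on the log2 scale (SE, edgeR adjusted p = 0.0081), a 1.53-fold difference. Uqcr11, a small accessory subunit, was at 6.19, 8.90 and 7.01 CPM in CTM and 9.64, 10.7 and 11.6 in 4T1, and was not called (log2 -0.53, edgeR adjusted p = 0.068). It was called lower by DESeq2 (adjusted p = 0.0216), by voom (0.0116) and with library totals (0.0493). The same held without 4T1 replicate 1 (0.0395) and without both libraries numbered 1 (0.0304).

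The other 5 nuclear subunits of complex III were not called. Uqcrc2, the partner core subunit of Uqcrc1, was higher in every CTM library, at a log2 difference of 0.28 (edgeR adjusted p = 0.104), and Uqcrfs1, the Rieske iron-sulfur protein, at 0.16. Uqcrb, Uqcrq and Uqcr10, small subunits around the core, overlapped between groups at 0.30, -0.11 and 0.07. The nuclear subunits of complex III together had a median of 0.07. Of its 6 assembly factors 1 rose, 16.7%, near the 14.2% of all genes higher. It was Ttc19, which clears fragments of the Rieske protein (22.4 ± 0.655 CPM in CTM, 17.3 ± 0.498 in 4T1, SD, n = 3 libraries each, edgeR adjusted p = 0.0379). That call was lost with library totals (adjusted p = 0.0927) and when CTM replicate 2 or 3 or 4T1 replicate 2 or 3 was left out (adjusted p = 0.099 to 0.141). Cycs, the mobile carrier cytochrome c, was at 31.6 ± 6.05 CPM in CTM, against 35.5 ± 1.28 in 4T1 (SD, n = 3 libraries each) and was not called (edgeR adjusted p = 0.451).

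Nuclear complex IV moved least as a sum, at 905 ± 38.4 CPM in CTM, against 869 ± 35.3 in 4T1 (SD, n = 3 libraries each), with 1 of 11 tested subunits higher and 1 lower. Each is 9.09%, against 14.2% of all genes higher and 13.7% lower. The sum includes Cox7a2l, at 219 ± 12.3 CPM in CTM, against 138 ± 13.7 in 4T1 (SD, n = 3 libraries each). The median log2 fold change of the 11 was -0.18, and 6 of them were negative. Cox7a2l, also called SCAF1, a relative of subunit 7a that joins complexes III and IV into a supercomplex, was at 231, 221 and 206 CPM in CTM and 153, 133 and 127 in 4T1. Its lowest CTM library was above the highest 4T1 library, and it rose by 0.67 ± 0.10 on the log2 scale (SE, edgeR adjusted p = 0.00405), 1.59-fold. Cox7a2, the widely expressed form of subunit 7a, was at 36.2, 37.4 and 38.2 CPM in CTM and 39.2, 44.4 and 46.4 in 4T1, and was not called (log2 -0.22, edgeR adjusted p = 0.152). Per library the ratio of Cox7a2l to Cox7a2 in CPM was 6.38, 5.92 and 5.41 in CTM and 3.91, 2.99 and 2.75 in 4T1, without overlap. With 3 against 3 libraries an exact permutation test cannot pass 0.05, so none is given for the ratio, which compares groups and not the levels of the genes.

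Cox6a1, the widely expressed form of the regulatory subunit 6a, fell, at 59.4, 71.3 and 66.7 CPM in CTM and 103, 87.6 and 98.8 in 4T1 (log2 -0.55 ± 0.11, SE, edgeR adjusted p = 0.0098). Without CTM replicate 3 its adjusted p was 0.0508. Cox6c and Cox6b1, accessory subunits on the surface of the enzyme, lay below every 4T1 library without being called. Cox6c was at 44.4, 48.0 and 44.5 CPM in CTM and 62.7, 56.9 and 49.5 in 4T1 (edgeR adjusted p = 0.0869), and Cox6b1 at 53.9, 52.5 and 51.9 CPM in CTM and 60.2, 61.2 and 62.2 in 4T1 (edgeR adjusted p = 0.0919). Cox6b1 was called lower by DESeq2 (adjusted p = 0.0302), by voom (0.00492) and with library totals (0.0336). The same held without 4T1 replicate 1 (0.0301) and without both libraries numbered 1 (0.00418). Cox6c was called lower with library totals (adjusted p = 0.042). Cox4i1, the usual form of subunit 4, was at 242, 242 and 219 CPM in CTM and 260, 205 and 221 in 4T1. The libraries of the groups were interleaved, with a log2 difference of 0.04 and a 95% interval of -0.22 to 0.30. Its counterpart Cox4i2, which replaces it in lung and under low oxygen, was above a count of 0 in CTM replicate 3 alone, so no fold is given. Cox5a, Cox5b, Cox7b, Cox7c and Cox8a overlapped between groups, at log2 differences from -0.19 for Cox7b to 0.29 for Cox7c.

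Outside the member list, 16 other subunits, isoforms and partners of complexes III to V were listed and 10 were tested. Of these 2 rose and 1 fell, 20% and 10%, against 14.2% of all genes higher and 13.7% lower. The median of the 10 was -0.12. Higd1a, a small inner membrane protein that binds cytochrome c oxidase and is induced by low oxygen, was at 72.1 ± 6.11 CPM in CTM, against 10.9 ± 0.348 in 4T1 (SD, n = 3 libraries each), 6.58-fold higher (edgeR adjusted p = 0.000128). Ndufa4, now counted as a complex IV subunit, was at 22.3, 29.2 and 24.4 CPM in CTM and 38.8, 44.6 and 45.8 in 4T1 (log2 -0.77 ± 0.14, SE, edgeR adjusted p = 0.00696). Its paralogue Ndufa4l2, an oxygen-regulated gene, had counts of only 0, 8 and 8 in CTM and 0, 15 and 24 in 4T1. Cox6a2, the muscle form of subunit 6a, named here after its values were seen, had counts of 38, 96 and 176 in CTM and 0, 7 and 0 in 4T1 and was called higher from these low counts (edgeR adjusted p = 0.0155). The call was lost without CTM replicate 2 (adjusted p = 0.0513) or 3 (adjusted p = 0.0612). Of 22 assembly factors of complex IV, 21 were tested, 4 rose and 1 fell, with a median of 0.35. The shares were 19.0% higher and 4.76% lower, against 14.2% and 13.7% of all genes. Surf1, needed to assemble the mt-Co1 module, was at 45.0 ± 5.55 CPM in CTM, against 21.8 ± 2.50 in 4T1 (SD, n = 3 libraries each; edgeR adjusted p = 0.00259). Cmc1, Cox14 and Coa5 rose by 0.65, 0.52 and 0.35 on the log2 scale, and Taco1, which activates translation of mt-Co1, fell by 0.65. Of these 5 calls only that of Surf1 held with each library left out. Cox14 and Taco1 were lost without any library but 4T1 replicate 1 (adjusted p = 0.0559 to 0.109 and 0.0534 to 0.117), Coa5 without CTM replicate 1 or 2 or 4T1 replicate 2 or 3 (adjusted p = 0.0518 to 0.111) and Cmc1 without CTM replicate 2 or 4T1 replicate 2 or 3 (adjusted p = 0.0553 to 0.0726). Coa5 was also lost with library totals (adjusted p = 0.0612) and Taco1 with no filter (adjusted p = 0.0599).

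**Figure D3:**
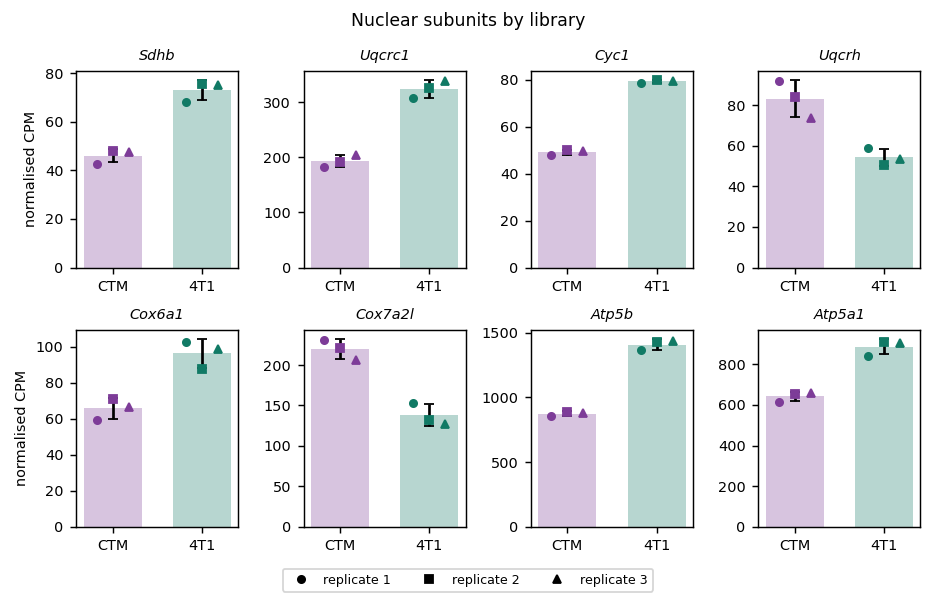
Normalised CPM of 8 nuclear members in each CTM and 4T1 library, with group means and SD bars. Uqcrh and Cox7a2l are higher in all CTM libraries, and Sdhb, Uqcrc1, Cyc1, Cox6a1, Atp5b and Atp5a1 are lower in all of them.

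ATP synthase, with the most nuclear members, also had the most that fell, 5 of 15, or 33.3%, against 13.7% of all genes lower. With each library left out in turn 3 fell, except without 4T1 replicate 1, where 8 fell. By edgeR 0 were higher (1 at an unadjusted p under 0.05, 1 by DESeq2 and 2 by voom), against 14.2% of all genes. The median was -0.33. Its nuclear members summed to 2717 ± 47.2 CPM in CTM, against 3601 ± 159 in 4T1 (SD, n = 3 libraries each). The catalytic head was lower in its α and β subunits. Atp5b, the β subunit that forms ATP, was at 853, 889 and 879 CPM in CTM and 1363, 1426 and 1437 in 4T1, a log2 change of -0.69 ± 0.07 (SE, edgeR adjusted p = 0.00106). Atp5a1, the α subunit, was at 613, 654 and 656 CPM in CTM and 843, 908 and 905 in 4T1, a log2 change of -0.46 ± 0.08 (SE, edgeR adjusted p = 0.00507). In both the CTM libraries formed a tight group under the 4T1 libraries. The γ, δ and ε subunits of the rotating shaft, Atp5c1, Atp5d and Atp5e, overlapped between groups, with log2 differences of 0.06, -0.07 and -0.10 and 95% intervals that reached -0.39 and 0.26 at most.

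The peripheral stalk, which keeps the head from turning with the rotor, had 2 of 4 subunits called and all 4 negative. The called share was 50%, against 13.7% of all genes lower, and 51.6% of all genes had a negative log2 fold change. Atp5o, the protein that joins stalk to head, was at 101, 106 and 102 CPM in CTM and 119, 135 and 139 in 4T1 (log2 -0.35 ± 0.09, SE, edgeR adjusted p = 0.0271), and Atp5j, coupling factor 6, changed by -0.34 (edgeR adjusted p = 0.0353). Both calls were lost when CTM replicate 1, 2 or 3 or 4T1 replicate 2 or 3 was left out. Atp5f1, subunit b, and Atp5h, subunit d, were not called, at -0.25 (edgeR adjusted p = 0.0903) and -0.21 (edgeR adjusted p = 0.145). Of the membrane subunits around the ring, Atp5j2, Atp5k and Atp5l, 0 were called by edgeR, at -0.33, -0.52 and 0.24, with 0 at an unadjusted p under 0.05, 0 by DESeq2 and 3 by voom. Atp5k rested on counts of 141 to 204 in CTM and 157 to 328 in 4T1. Of the 5 assembly factors of complex V, edgeR called 0, with 2 at an unadjusted p under 0.05, DESeq2 0 and voom 4. Atpif1, the protein that inhibits ATP hydrolysis by complex V, was at 35.2 ± 3.19 CPM in CTM, against 43.6 ± 6.20 in 4T1 (SD, n = 3 libraries each; edgeR adjusted p = 0.135).

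The c subunit, of which a ring turns as protons pass, is made from 3 genes that encode the same mature protein behind different import sequences, so their messages can be told apart while their products cannot. The last 228 coding bases of each, without the stop codon, which hold that mature protein, are shown because they are the part in which the genes could share reads. They are the coding bases 181 to 408 of Atp5g1 on chromosome 11, 211 to 438 of Atp5g2 on chromosome 15 and 196 to 423 of Atp5g3 on chromosome 2, in GRCm38 with the GENCODE M21 annotation. Capitals mark the 59 positions at which the genes do not all have the same base.
Atp5g1: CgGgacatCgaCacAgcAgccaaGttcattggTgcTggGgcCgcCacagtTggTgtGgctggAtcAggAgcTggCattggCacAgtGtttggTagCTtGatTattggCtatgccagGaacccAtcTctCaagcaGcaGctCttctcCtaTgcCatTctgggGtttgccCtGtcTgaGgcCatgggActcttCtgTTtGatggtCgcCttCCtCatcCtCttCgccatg
Atp5g2: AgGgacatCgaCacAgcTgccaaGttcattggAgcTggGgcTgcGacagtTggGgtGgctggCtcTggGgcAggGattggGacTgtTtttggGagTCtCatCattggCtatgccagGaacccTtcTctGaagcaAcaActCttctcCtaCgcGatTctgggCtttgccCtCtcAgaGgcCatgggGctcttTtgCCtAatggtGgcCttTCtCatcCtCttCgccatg
Atp5g3: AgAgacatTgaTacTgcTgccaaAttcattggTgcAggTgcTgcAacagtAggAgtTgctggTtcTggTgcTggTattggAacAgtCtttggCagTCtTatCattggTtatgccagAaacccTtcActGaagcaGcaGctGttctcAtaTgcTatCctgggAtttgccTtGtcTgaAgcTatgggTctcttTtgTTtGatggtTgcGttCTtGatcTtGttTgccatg
In this stretch Atp5g1 and Atp5g2 were 84.65% identical, Atp5g1 and Atp5g3 79.39%, and Atp5g2 and Atp5g3 78.51%. The longest run of bases shared anywhere in the coding sequences was 20 between Atp5g1 and Atp5g2, 11 between Atp5g1 and Atp5g3 and 8 between Atp5g2 and Atp5g3, so within the coding sequence a longer read matches only 1 of each pair exactly.

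Of the 3 genes, 1 was called, 33.3%, against 27.9% of all genes called in either direction. Atp5g3 was at 85.7, 88.4 and 83.2 CPM in CTM and 121, 132 and 130 in 4T1, and fell by 0.58 ± 0.08 on the log2 scale (SE, edgeR adjusted p = 0.0034). Atp5g2 was at 151, 159 and 139 CPM in CTM and 97.1, 128 and 127 in 4T1, higher in every CTM library, but not called (log2 0.35 ± 0.13, SE, edgeR adjusted p = 0.0805). Atp5g1 was at 11.97, 17.3 and 17.6 CPM in CTM and 22.1, 20.7 and 19.0 in 4T1, lower in every CTM library and not called (log2 -0.40 ± 0.18, SE, edgeR adjusted p = 0.136). The ratio of Atp5g2 to Atp5g3 within a library, which does not depend on scaling between libraries, was 1.77, 1.80 and 1.67 in CTM and 0.805, 0.964 and 0.975 in 4T1. Atp5g2 was thus the higher of the pair in every CTM library and the lower in every 4T1 library, in CPM. Per kilobase of principal transcript, Atp5g2 made up 62.7% ± 0.937 of the summed level of the 3 genes in CTM, against 46.8% ± 2.73 in 4T1 (SD, n = 3 libraries each), while that sum was 327 ± 16.9 CPM per kilobase in CTM and 341 ± 32.2 in 4T1. The share of Atp5g1 is uncertain, because its annotated principal transcript is 4715 bases long. Without 4T1 replicate 1 the log2 difference of Atp5g2 was 0.23, at an adjusted p of 0.0477.

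**Figure D4:**
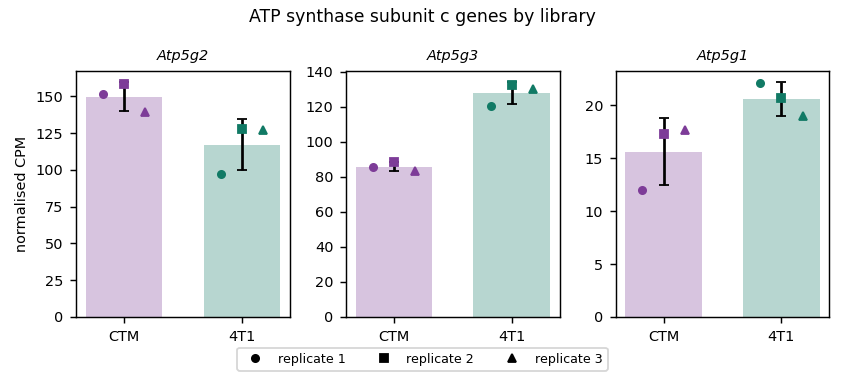
Normalised CPM of Atp5g2, Atp5g3 and Atp5g1, the genes of the ATP synthase c subunit, in each CTM and 4T1 library, with group means and SD bars. Atp5g2 lies at 139 to 159 CPM in CTM and 97.1 to 128 in 4T1, and Atp5g3 at 83.2 to 88.4 CPM in CTM and 121 to 132 in 4T1.

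Promoters are shown for members that moved apart within a complex or a gene family. Of the 40 nuclear members, 31 had a promoter in the RefSeq table of GRCm38.p6, from 250 bases before to 50 after the start of the gene. Searched on both strands were the core of the site of NRF1, a factor known for driving nuclear respiratory genes (its letters are those in capitals in the Uqcrc1 promoter below, with any base at the fifth place), CCGGAAG, the core of sites of ETS factors, among them GABP, and ACGTG, the core of the hypoxia response element. The NRF1 core was in 10 of the 31 promoters and in 4.603% of all 32851 promoters of this length, CCGGAAG in 12 and in 8.86%, and ACGTG in 9 and in 19.6%. Among the members that fell, 4 of 7 held the first, 3 the second and 1 the third; of the 2 that rose, none held the first or the third and 1 the second; of those not called, 6, 8 and 8 of 22. Matches to different cores do not overlap in the promoters printed, the NRF1 core can match both strands at the same place, and a match is only a description of the sequence. All are from 5′ to 3′ on the strand of the gene, and capitals mark matches to any of the cores.
Uqcrc1, chr9:108936398-108936697, plus strand: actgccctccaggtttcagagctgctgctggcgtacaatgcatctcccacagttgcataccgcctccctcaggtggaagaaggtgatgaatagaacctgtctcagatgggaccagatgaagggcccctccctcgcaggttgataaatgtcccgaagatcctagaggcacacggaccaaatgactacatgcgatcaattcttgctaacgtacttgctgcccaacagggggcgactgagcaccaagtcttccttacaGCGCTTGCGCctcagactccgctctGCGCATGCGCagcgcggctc
Uqcrh, chr4:116075021-116075320, minus strand: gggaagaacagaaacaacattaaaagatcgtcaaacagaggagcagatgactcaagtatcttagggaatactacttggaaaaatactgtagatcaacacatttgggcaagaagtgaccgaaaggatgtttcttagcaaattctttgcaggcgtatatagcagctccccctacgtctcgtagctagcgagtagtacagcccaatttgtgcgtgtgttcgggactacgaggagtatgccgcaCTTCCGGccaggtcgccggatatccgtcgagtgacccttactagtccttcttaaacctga
Cox6a1, chr5:115348909-115349208, minus strand: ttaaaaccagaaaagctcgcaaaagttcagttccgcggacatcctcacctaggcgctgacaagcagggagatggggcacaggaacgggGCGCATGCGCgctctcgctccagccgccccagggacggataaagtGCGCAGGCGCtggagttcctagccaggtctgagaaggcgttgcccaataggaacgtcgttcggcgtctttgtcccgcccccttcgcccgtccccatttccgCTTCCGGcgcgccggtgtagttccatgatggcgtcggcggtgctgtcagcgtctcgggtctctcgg
Cox7a2l, chr17:83514284-83514583, minus strand: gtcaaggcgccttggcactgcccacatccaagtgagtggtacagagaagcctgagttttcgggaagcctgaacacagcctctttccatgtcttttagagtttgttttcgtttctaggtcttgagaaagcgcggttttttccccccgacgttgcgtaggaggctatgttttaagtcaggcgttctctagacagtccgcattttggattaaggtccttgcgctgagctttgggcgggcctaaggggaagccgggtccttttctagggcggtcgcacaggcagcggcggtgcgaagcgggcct
Atp5g2, chr15:102670998-102671297, minus strand: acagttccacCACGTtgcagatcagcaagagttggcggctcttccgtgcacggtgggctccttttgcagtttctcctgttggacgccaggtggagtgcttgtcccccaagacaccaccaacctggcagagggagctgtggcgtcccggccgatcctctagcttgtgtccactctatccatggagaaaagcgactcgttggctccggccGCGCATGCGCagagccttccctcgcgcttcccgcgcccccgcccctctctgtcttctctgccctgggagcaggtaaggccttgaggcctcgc
Atp5g3, chr2:73911277-73911576, minus strand: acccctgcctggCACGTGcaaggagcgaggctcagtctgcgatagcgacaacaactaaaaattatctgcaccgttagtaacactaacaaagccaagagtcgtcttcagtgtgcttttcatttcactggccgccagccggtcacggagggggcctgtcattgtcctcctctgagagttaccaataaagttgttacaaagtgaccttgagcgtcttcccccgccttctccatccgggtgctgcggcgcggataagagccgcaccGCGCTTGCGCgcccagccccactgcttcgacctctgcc
Uqcrc1, which fell, held the NRF1 core at 2 places, as did Cox6a1, which also held 1 ETS core. Uqcrh, which rose, held 1 ETS core, and Cox7a2l, which rose, held no match in this window. Atp5g2 and Atp5g3 each held 1 NRF1 core, and both held ACGTG. Atp5b, Sdhb and Atp5j also fell, are not printed here, and held no NRF1 core. Sdhb and Atp5j each held 1 ETS core, and Atp5b held no match.

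Other genes of respiration were compared with the members by the same counts. Of the 18 genes of the citric acid cycle and pyruvate dehydrogenase, 9 fell and 1 rose, with a median of -0.38. These are 50% and 5.56%, against 13.7% of all genes lower and 14.2% higher. With each library left out in turn 3 to 11 fell. The count was 3 without CTM replicate 2 or 4T1 replicate 2, and 5 without CTM replicate 3 or 4T1 replicate 3. Mdh2, mitochondrial malate dehydrogenase, was at 176 ± 9.40 CPM in CTM, against 316 ± 14.8 in 4T1 (SD, n = 3 libraries each; log2 -0.84, edgeR adjusted p = 0.00117), and Idh3a, the catalytic subunit of NAD-dependent isocitrate dehydrogenase, changed by -0.93 (edgeR adjusted p = 0.00152). Idh3b, another subunit of the same enzyme, rose by 0.34 (edgeR adjusted p = 0.039), a call lost with library totals (adjusted p = 0.0887) and when any library but 4T1 replicate 1 was left out (adjusted p = 0.0679 to 0.101). Of 36 nuclear subunits of complex I, 8 fell and 3 rose, with a median of -0.08, near that of all genes. The shares were 22.2% lower and 8.33% higher, against 13.7% and 14.2% of all genes. With each library left out in turn 3 to 10 fell and 1 to 4 rose, and only 3 or 4 fell without any library but 4T1 replicate 1. Of these, Ndufa6 was at 31.9 ± 3.69 CPM in CTM, against 16.7 ± 2.05 in 4T1 (SD, n = 3 libraries each; edgeR adjusted p = 0.00457), and Ndufs1 changed by -0.62 (edgeR adjusted p = 0.00461).

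Of 10 oxygen-regulated modifiers of respiration, 9 were tested, 7 rose and 1 fell, with a median of 0.76. These are 77.8% and 11.1%, against 14.2% of all genes higher and 13.7% lower. Without CTM replicate 2, 4 rose. Pdk1, the kinase that shuts off pyruvate dehydrogenase, was at 184, 253 and 252 CPM in CTM and 134, 145 and 147 in 4T1 (log2 0.69 ± 0.14, SE, edgeR adjusted p = 0.0105; adjusted p = 0.0515 without CTM replicate 2). Lonp1, a matrix protease, was at 297, 325 and 332 CPM in CTM and 212, 177 and 173 in 4T1 (log2 0.76 ± 0.11, SE, edgeR adjusted p = 0.00312), and Bnip3, a mitophagy receptor, was 3.53-fold higher (edgeR adjusted p = 0.000168). Glud1, glutamate dehydrogenase, fell by 0.70 on the log2 scale. Among 8 regulators of mitochondrial biogenesis, 7 were tested and 1 fell, a share of 14.3%, near the 13.7% of all genes lower. That gene was Pprc1, a coactivator related to PGC-1α, at 17.2, 19.4 and 22.3 CPM in CTM and 28.9, 48.5 and 51.4 in 4T1 (log2 -1.13, edgeR adjusted p = 0.0114). Without CTM replicate 2 its edgeR adjusted p was 0.0526. Ppargc1a, which encodes PGC-1α, had a count of 0 in every CTM library and of 4, 6 and 10 in 4T1.

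**Figure D5:**
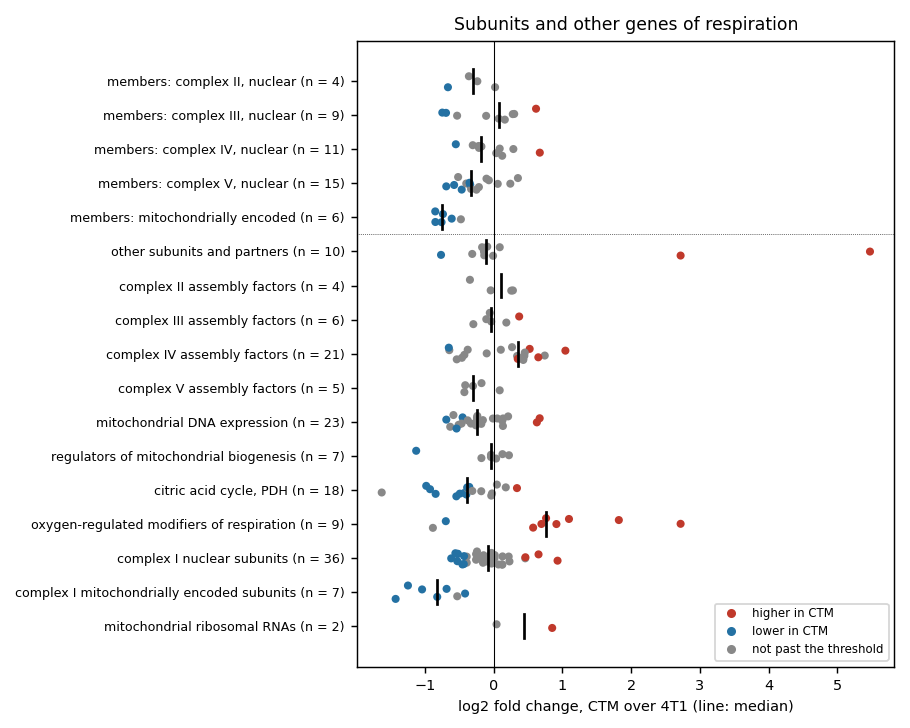
Log2 fold changes, CTM over 4T1, of the tested genes in each complex and in 12 related lists, 1 point per gene, with the median of each list. The median of the mitochondrial members is -0.75, that of the nuclear members of complex III 0.07 and that of the oxygen-regulated modifiers 0.76.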

How the data were processed

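RNA of 3 CTM and 3 4T1 libraries was harvested and made into libraries with SMART-Seq ultra low input kits, as the labels' protocols give it. Build mm8 and the tools edgeR, Bowtie 0.12.2 and HISAT2 2.0.4 are listed, without their roles, in the submitters' processing notes. For the counter and its use of strand, the sources used here give nothing. The authors deposited estimated counts per gene, whole and unscaled. Low counts pile up at 4: in 4T1 replicate 1, 956 genes had a count of 4, 391 of 3 and 320 of 5, so counting error may be larger than the totals imply. The test, planned for plain counts, was used unchanged.

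Symbols matched 52073 of 56691 identifiers. Genes were filtered with filterByExpr, scaled by TMM (factors 0.952 to 1.04) and tested two-sided by quasi-likelihood F tests (edgeR 4.0.16, R 4.3.3) over all 6 libraries without a block, with Benjamini-Hochberg adjustment over all genes; 2323 were called higher in CTM and 2252 lower, and the biological coefficient of variation was 28.1%. SE is the size of the log2 fold change divided by the square root of F, and CPM uses TMM-scaled totals. No set test was run. The script was tested on simulated data.

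The members, gene lists and tests were chosen with earlier results of these data known. Values per library are given for the mitochondrial members, complex II, the isoform pairs and trio, and the 4 members of nuclear complexes III, IV and V with the smallest p, and, outside the members, for a fixed set and up to 2 genes with the smallest p per list; others were named after their values were seen. Sequences are from RefSeq promoters of GRCm38.p6 and from GRCm38 with GENCODE M21, not from the authors' build, and levels per kilobase use the annotated principal transcript. Close copies elsewhere in the genome could take or give reads. Only pseudogenes that carry a member's name were counted, those of Uqcrh, Atp5c1, Atp5k and Atp5l, and they held 0 to 6 counts per library. Copies of the members under other names were not examined. Alternatives were DESeq2 1.42.0, voom of limma 3.58.1 with quality weights, library totals, scaling without mitochondrial genes, no filter, a filter of 5 CPM, a replicate block, counts divided by 4, libraries 2 and 3 averaged, both libraries numbered 1 left out, and each library left out.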

Additional observations from a re-analysis of the deposited data

How the results depend on the processing

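No member that was called changed its direction under any alternative run, and DESeq2, scaling without mitochondrial genes, a filter of 5 CPM and counts divided by 4 lost no call. Over all genes, 2323 were higher in CTM and 2252 lower; voom gave 4514 and 4628, leaving out both libraries numbered 1 gave 4239 and 4340, and averaging libraries 2 and 3 gave 276 and 200. Over the members, 2 higher and 14 lower became 5 and 23 with voom and again 5 and 23 without the libraries numbered 1, and 0 and 1 with averages, where mt-Cytb alone was called. Of the nuclear members, 2 higher and 9 lower became 5 and 18 in both of those, 0 and 0 with averages (1 mitochondrial), and 2 and 15 with library totals. With each library left out in turn, higher genes numbered 1334 to 3323 and lower ones 1208 to 3326, with 2 to 3 and 10 to 21 members, 2 to 3 and 6 to 16 nuclear members and 4 to 5 mitochondrial members lower; the 21 and 16 came without 4T1 replicate 1, and the lowest counts over all genes without CTM replicate 2, with fewer lower genes also without CTM replicate 3 (1292) and without 4T1 replicate 2 or 3 (1415 and 1437), and 1496 higher without 4T1 replicate 2.

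Samples of a number are not known to be paired: the deviations of same-numbered libraries correlated at 0.187, 0.121 and 0.0743, and CTM replicate 2 correlated best with 4T1 replicate 3. With the replicate block 2232 genes were higher and 2065 lower, and 2 and 13 members; Atp5j was the member whose call was lost (adjusted p = 0.0538), and among the related genes Ttc19 (0.0613), Fastkd5 (0.0502), Idh3b (0.0762) and the complex I genes Ndufv3 (0.0579), Ndufa11 (0.0758) and Ndufb8 (0.0582) lost theirs.

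Depth did not limit most members, but Cox4i2, Ndufa4l2 and Ppargc1a were too low to test. Whether the close libraries 2 and 3 are separate samples is not known, and averaging them leaves 2 libraries a group. The causes of the differences between settings were not tested.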

Other observations

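The order of the members by mean CPM per kilobase shifted among the nuclear subunits. Cox7a2l was 12th in CTM and 18th in 4T1, Uqcrh 14th and 22nd, and Atp5g2 11th and 15th. Uqcrc1 was 18th in CTM and 11th in 4T1, and Sdhb 37th and 29th. These ranks depend on the annotated transcript length and were not tested. Spread differed between the kinds of member: the median coefficient of variation over 3 libraries was 12.8% in CTM and 5.82% in 4T1 for mitochondrial members, and 6.16% in CTM and 7.66% in 4T1 for nuclear ones.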
